A study of Homo sapiens with 4 samples.

Results

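Cluster 5 is a group of cells that the authors marked with that number in the deposited annotation of a single-cell study of MDA MB 134VI (MM134), an established human cell line of invasive lobular breast carcinoma. Every cell with that number was taken, 729 of 8307 in all: 364 of 4940 cells given vehicle (7.37%, exact 95% interval 6.66 to 8.13) and 365 of 3367 cells given estradiol (10.8%, 9.81 to 11.9). The line is wild type in the labels. All cells were first kept without hormone, in phenol red-free IMEM medium with 10% charcoal-stripped serum, and then received 0.01% ethanol or 100 nM estradiol for 24 h before trypsin was used to free single cells. For each treatment there was 1 set of mRNA libraries, which held a targeted gene panel, and 1 Haircut library, which reads DNA repair, so 4 samples in all. Treatment and library cannot be told apart, cells of 1 library are not replicates, and no p-value is given anywhere. Ratios carry 95% intervals for counting error only. The clusters are the authors' division of these same cells, and the sources used here do not say which measurements it used, so every contrast between clusters is a description and no test.

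In G1, the phase before DNA replication, a cell either gathers growth signals and commits to another round of division or withdraws into quiescence. In hormone-responsive breast cancer the estrogen receptor, encoded by ESR1, drives that commitment through genes such as CCND1 (cyclin D1) and MYC. The genes of mitosis are silenced in G1 by repressor complexes that bind CHR elements in their promoters, those of replication mainly through E2F sites, and CCAAT boxes bound by NF-Y keep many mitotic promoters active later in the cycle. Haircut exposes the contents of each droplet to DNA hairpins that each carry 1 kind of lesion; an enzyme that cuts at the lesion leaves a shortened strand, whose end is then read. Abasic sites are cut by APEX1, uracils by uracil glycosylases and then APEX1, and a ribonucleotide in DNA by RNase H2.

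The authors' phase calls put 353 of the 364 vehicle cells (97.0%, 94.7 to 98.5) and 349 of the 365 estradiol cells (95.6%, 93 to 97.5) in G1. The other 11 and 16 were called S, and none was called G2/M, with an exact 95% upper limit of 1.01% in each library. Outside the cluster, 2140 vehicle cells and 814 estradiol cells were called G1. The labels do not say how the phases were called, and the calls may rest on these same genes, so the sums below describe the label and do not test it. Summed over 20 genes of G2/M, G1 cells of cluster 5 held 391 and 455 UMIs per 1000000 of the all-gene total (CPM) under vehicle and estradiol, against 1037 and 1343 in the other G1 cells and 3829.7 and 3763 in S cells of the other clusters. The few cluster 5 cells called S were apart from their neighbours: their S-phase genes summed to 3370.2 and 3314 CPM, against 711 and 888 CPM in the G1 cells of the cluster. All 10 luminal epithelial markers were present, and 7 of 8 basal markers and 11 of 12 immune or endothelial markers had 0 UMIs in each library. Of 10 mesenchymal markers, 5 had UMIs, summing to 285 and 215 CPM in the cluster and 252 and 194 CPM in all other cells, with COL1A2, COL3A1, PDGFRB, SNAI2 and ZEB2 at 0.

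The median cluster 5 cell held 1146 and 1243 all-gene UMIs, 2332 and 2144 panel UMIs and 829.5 and 1122 repair UMIs under vehicle and estradiol. The median all-gene depth of all other cells was 1208 and 1619. The mitochondrial percent was 8.74 and 8.22 at the median, which ranked 1 and 2 among the 8 clusters. The library totals were 6918198 and 5937422 all-gene UMIs, 14080930 and 10352943 panel UMIs and 4738500 and 4479977 repair UMIs. Of the cell barcodes, 4 occurred in both libraries, 8 cells in all, of which 1 lay in cluster 5; leaving them out moved no count of genes past 1.5-fold by more than 1.5 times.

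Most of the genes lowest in cluster 5 are genes of mitosis, whose promoters often hold CHR elements and CCAAT boxes, so 3 of their promoters are shown beside that of 1 gene that was raised in the cluster. Each runs from 250 bases before the start of the gene to 50 after it, from RefSeq on GRCh38.p14. Capitals mark TTTGAA, the letters of many CHR elements, and CCAAT, each on either strand (as TTCAAA or ATTGG on the other). They belong to TOP2A (chr17:40417847-40418146, minus strand), CENPA (chr2:26785806-26786105, plus strand), NUSAP1 (chr15:41332631-41332930, plus strand) and WNT4 (chr1:22143048-22143347, minus strand).
TOP2A: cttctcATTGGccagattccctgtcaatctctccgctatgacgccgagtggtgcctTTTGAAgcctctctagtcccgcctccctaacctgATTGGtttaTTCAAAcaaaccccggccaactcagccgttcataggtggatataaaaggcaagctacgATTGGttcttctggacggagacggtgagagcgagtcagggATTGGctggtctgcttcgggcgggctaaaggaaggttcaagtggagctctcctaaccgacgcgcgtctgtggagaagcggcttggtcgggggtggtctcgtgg
CENPA: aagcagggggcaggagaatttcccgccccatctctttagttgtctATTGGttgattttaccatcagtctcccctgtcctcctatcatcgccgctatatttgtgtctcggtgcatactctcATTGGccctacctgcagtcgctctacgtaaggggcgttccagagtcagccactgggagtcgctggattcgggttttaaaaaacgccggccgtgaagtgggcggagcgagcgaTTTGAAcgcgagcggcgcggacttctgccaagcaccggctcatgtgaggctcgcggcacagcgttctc
NUSAP1: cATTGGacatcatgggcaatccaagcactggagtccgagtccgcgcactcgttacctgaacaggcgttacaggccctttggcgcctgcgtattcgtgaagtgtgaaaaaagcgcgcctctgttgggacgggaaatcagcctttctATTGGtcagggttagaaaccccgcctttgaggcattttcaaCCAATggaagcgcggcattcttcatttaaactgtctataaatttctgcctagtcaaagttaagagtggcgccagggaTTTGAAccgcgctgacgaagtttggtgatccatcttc
WNT4: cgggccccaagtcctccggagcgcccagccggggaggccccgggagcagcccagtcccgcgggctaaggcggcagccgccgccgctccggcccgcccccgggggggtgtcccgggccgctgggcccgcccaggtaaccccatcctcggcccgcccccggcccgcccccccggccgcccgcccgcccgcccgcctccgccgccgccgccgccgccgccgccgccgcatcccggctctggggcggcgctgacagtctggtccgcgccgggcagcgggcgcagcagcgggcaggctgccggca
TOP2A, which untangles chromosomes, has 2 TTTGAA and 4 CCAAT matches; CENPA, the centromere histone, has 1 and 2; NUSAP1, a spindle protein, has 1 and 3. WNT4, a secreted Wnt ligand that estrogen induces, has neither. Of the 16 genes named as lowest against all other cells, 10 had a promoter in the table; 8 of these (80%) held TTTGAA, 9 (90%) held CCAAT and 7 (70%) held both. Of the 16 named as highest, 12 had a promoter; 0 held TTTGAA and 3 (25%) held CCAAT. Over all 27305 promoters of this length the shares were 15.4% for TTTGAA, 35.7% for CCAAT and 6.08% for both. The full estrogen response element, GGTCA and TGACC with 3 bases of any kind between them, was found in 0 of the 10 and 0 of the 12, and in 18 of all promoters (0.0659%). No promoter entry was matched for HIST1H1B, HIST1H3B, HIST1H3D, HIST1H3F, HIST1H3G and UBE2C among the low genes, or for ARMCX3, GRIA3, MAPT and ZC2HC1A among the high ones. WNT4 is not among those 16 high genes but among 28 named as highest against the G1 cells of clusters 2 and 6. Of these, 20 had a promoter, of which 1 (5%) held TTTGAA and 7 (35%) held CCAAT, near the CCAAT share of all promoters. A match is a run of letters and not a measured binding site, and a missing match says only that these letters are not in the window.

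Against all other cells of the same library, cluster 5 had lower levels of most measured genes of mitosis, and higher levels of the receptor subunit GRIA3 and of ESR1. Those other cells include cells called S and G2/M; against the G1 cells of cluster 2 alone, the 4 G2/M genes measured under vehicle had a median log2 ratio of 0.19, TOP2A alone lying below 0 (-0.31). A gene counts as measured where at least 50 UMIs were expected in the smaller group, and as past the fold at 1.5-fold. In the panel, 33 of 741 measured genes were past the fold upwards (4.45%) and 129 downwards (17.4%) under vehicle; under estradiol 34 (4.74%) and 106 (14.8%) of 717, together 21.9% and 19.5%. In the all-gene rows the counts were 39 (2.55%) and 152 (9.92%) of 1532, and 47 (2.77%) and 169 (9.98%) of 1694, together 12.5% and 12.8%. CCND1 alone made up much of the panel total, and scaling shifts the panel counts: with median-of-ratios scaling the vehicle split was 55 up and 95 down, the median gene moving by 0.14 on the log2 scale, and without the 10 most abundant genes it was 53 and 100, with a move of 0.12. The estradiol split without those 10 genes was 51 and 94. Of 717 panel genes measured in both libraries, 584 lay on the same side in both. Genes measured in both the panel and the all-gene rows, 170 under vehicle and 173 under estradiol, lay on the same side in 139 and 151 cases.

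**Figure D1:**
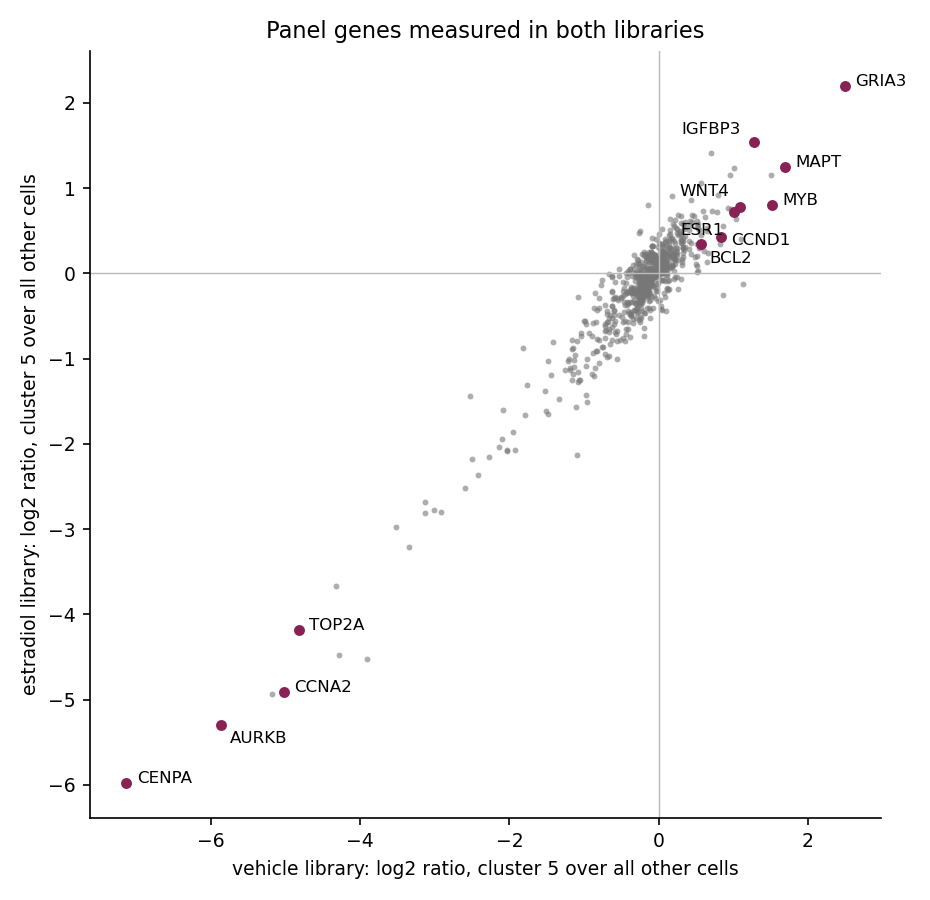
Each point is 1 of the 717 panel genes measured in both libraries; the x axis is the log2 ratio of cluster 5 over all other cells under vehicle and the y axis the same under estradiol. CENPA, AURKB, CCNA2 and TOP2A lie at the low end of both axes, and GRIA3 lies highest on both.

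The mitotic genes had the largest ratios. TOP2A stood at 853 CPM in cluster 5 and 24126 CPM in all other vehicle cells, a log2 ratio of -4.82 (95% interval -4.92 to -4.72); the estradiol values were 1117 and 20291 CPM, -4.18 (95% interval -4.28 to -4.09). CENPA gave 2 and 3 UMIs in the whole cluster, or 2.19 and 3.62 CPM, against 307 and 228 CPM elsewhere, log2 ratios of -7.13 (95% interval -10.18 to -5.28) and -5.98 (95% interval -8.26 to -4.43). Both genes were low in both libraries of the cluster and high in the remaining cells of both. AURKB, the kinase of the chromosomal passenger complex, had log2 ratios of -5.86 and -5.29, CCNA2 (cyclin A2) of -5.02 and -4.91, and HIST1H3B, a replication-dependent histone, of -5.18 and -4.94. MKI67, the proliferation marker, is in the all-gene rows at 24.5 against 859 CPM under vehicle and 43.9 against 924 CPM under estradiol, log2 ratios of -5.14 and -4.39. No UMI of ANLN, GTSE1 or KIF23, which act in spindle function and cell separation, was seen in the vehicle cells of the cluster; at a floor of 3 UMIs over the group their levels were at least 21.8-fold, 21-fold and 19.5-fold lower than elsewhere.

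Under vehicle and estradiol, 17.4% and 14.8% of all measured panel genes were past the fold downwards, and 9.92% and 9.98% of the all-gene rows. All 5 measured panel genes of the G2/M list were past the fold downwards in both libraries (medians -3.52 and -2.97, beside -0.14 and -0.04 for all measured panel genes), as were all 13 in the all-gene rows (medians -4.24 and -4.21). S-phase genes were lower by less: 6 of 8 panel members under vehicle and 8 of 8 under estradiol were past the fold (medians -0.75 and -1.02), among them PCNA, the replication clamp, at -1.06 and -1.25 and CDC6, the origin licensing factor, at -0.85 and -1.12. Among G1 cyclins, kinases and inhibitors, 8 of 16 were past the fold downwards in each library. CDKN2C, the inhibitor p18, was the lowest of these at -3.13 and -2.81, CCNE2 (cyclin E2) stood at -1.10 and -2.13 and CDK2 at -1.18 and -1.11. CCND1 was on the other side, at 0.84 and 0.43, as was CDKN1C, the inhibitor p57, at 223 against 138 CPM and 263 against 98.8 CPM, 0.70 (95% interval 0.48 to 0.91) and 1.41 (95% interval 1.20 to 1.63). CDKN1A, the inhibitor p21, was at -0.55 and -0.31.

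Many repair genes had ratios below 1 in the cluster, set here beside the 17.4% and 14.8% of all measured panel genes past the fold downwards under vehicle and estradiol (medians -0.14 and -0.04). For homologous recombination, 9 of 16 measured genes under vehicle and 9 of 15 under estradiol were past the fold downwards (medians -0.90 and -1.01). RAD54L, a DNA translocase, had 50.4 against 216 CPM and 76.1 against 293 CPM, log2 ratios of -2.10 (95% interval -2.55 to -1.68) and -1.95 (95% interval -2.33 to -1.59), and the helicase BLM was at -1.95 and -1.86. In end joining, POLQ was at -1.92 and -2.08 while PRKDC, the DNA-dependent kinase, was at -0.31 and -0.52. Of 14 mismatch and nucleotide excision genes, 0 and 1 were past the fold (medians -0.07 and 0.03). Of 7 base excision genes, 3 were in each library: PCNA, FEN1 (the flap nuclease, -1.06 and -1.25) and PARP2 (a break sensor, -0.82 and -0.91). PARP1 was at 3698 against 4063 CPM and 4512 against 5058 CPM, log2 ratios of -0.14 and -0.16. MDC1, which gathers repair factors at breaks, was at 718 against 879 CPM under vehicle, -0.29 (95% interval -0.41 to -0.18), where cluster 5 ranked lowest of the 8 clusters, and at 826 against 839 CPM under estradiol, -0.02 (95% interval -0.14 to 0.09), where it ranked 4.

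GRIA3, a glutamate receptor subunit, was the gene most raised in cluster 5 in the panel: 244 against 43.4 CPM under vehicle, 2.49 (95% interval 2.26 to 2.72), and 268 against 58.3 CPM under estradiol, 2.20 (95% interval 1.97 to 2.43). It ranked 1 of the 8 clusters in both libraries. Also high were MAPT, the microtubule protein tau, at log2 ratios of 1.69 and 1.24, DCX (doublecortin) at 1.51 and 1.15, and in the all-gene rows BEX1, an adaptor of nerve growth factor signalling, at 1.74 and 1.75, SYT1, the vesicle calcium sensor, at 1.36 and 1.55, and NRCAM, an adhesion protein, at 0.82 and 1.10. These genes are named for the size of their ratios. Growth factor genes among the 8 highest of the panel were IGFBP3, which binds insulin-like growth factors (1.27 and 1.54), PGF, placental growth factor (1.01 and 1.23), and the receptor FGFR4 (0.95 and 1.16). The cytoskeletal linker MACF1 stood at 0.80 and 0.92 and the cytokine-receptor kinase JAK2 at 0.97 and 0.76.

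ESR1, at chr6:151656672-152129619 on GRCh38.p14, was higher in cluster 5 than in any other cluster, in both libraries and in both blocks of genes. Panel levels were 6329 CPM in the cluster and 3133 CPM in all other vehicle cells, 1.01 (95% interval 0.97 to 1.05), and 5212 and 3158 CPM under estradiol, 0.72 (95% interval 0.68 to 0.77). With each cell thinned to 800 panel UMIs, the median cluster 5 cell held 5 ESR1 UMIs under vehicle (quartiles 3 and 7) and 4 under estradiol (2 and 6), and the median of all other cells was 2 in both libraries. Unthinned medians were 14 and 11 UMIs in the cluster. The luminal regulators GATA3 and FOXA1 were near the level of the rest, GATA3 at log2 ratios of 0.07 and 0.24 and FOXA1 at 0.17 and 0.21.

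Genes that estrogen is known to induce were high in the cluster already under vehicle. Of 8 measured panel members, 7 were past the fold upwards against all other vehicle cells (median 0.97), with MYB (1.52), MYC (1.13), EGR3 (1.11) and WNT4 (1.09) in front and E2F1, which peaks as cells enter S phase, on the other side (-0.69). Against all other estradiol cells 2 of 8 were (median 0.42), MYB at 0.80 and WNT4 at 0.78. Of all measured panel genes, 4.45% and 4.74% were past the fold upwards under vehicle and estradiol (medians -0.14 and -0.04). MYC stood at 345 CPM under vehicle, the highest of the 8 clusters, and at 250.0 CPM under estradiol, rank 6, with log2 ratios of 1.13 and -0.13. CCND1 stood at 186500 and 192680 CPM in the cluster and at 104490 and 143280 CPM elsewhere. In the all-gene rows TFF3, a secreted trefoil peptide, was at 1.31 and 0.74. All 13 mitochondrially encoded genes were above a ratio of 1 in both libraries, by little (medians 0.20 and 0.15), beside the mitochondrial percent given above; whether it bears on the other ratios was not tested.

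Clusters 2 and 6 held most of the remaining vehicle cells called G1 and give a comparison in which nearly all cells of both sides were called the same phase. Their G1 cells numbered 1078 and 595 under vehicle but only 70 and 74 under estradiol, so far fewer genes were measured there. The cluster 5 cells are the same in both comparisons, which are therefore not independent of each other. Their cells differed in depth: the median vehicle cell had 1450.5 panel UMIs in cluster 2 and 2892 in cluster 6, beside 2332 in cluster 5. ESR1, BCL2 and RET were higher in cluster 5 than in both, and WNT4 was higher than in cluster 6. The ERK phosphatase DUSP6 and the lipid phosphatase INPP4B were low in cluster 5.

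Against the G1 cells of cluster 2, 27 of 723 panel genes were past the fold upwards (3.73%) and 44 downwards (6.09%) under vehicle. Median-of-ratios scaling turned this split to 34 and 27, and leaving the 10 most abundant genes out of the total to 34 and 29. Under estradiol 6 (1.95%) and 3 (0.977%) of 307 were past it. In either direction this was 9.82% under vehicle and 2.93% under estradiol. In the all-gene rows the counts were 41 (2.82%) and 32 (2.2%) of 1452 under vehicle and 2 (1.5%) and 2 (1.5%) of 133 under estradiol, where median-of-ratios scaling gave 6 and 0, with a shift of 0.12 in the median gene, and leaving out the 10 most abundant genes gave 2 and 1. In either direction the all-gene shares were 5.03% and 3.01%.

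ESR1 stood at 6329 against 3626 CPM under vehicle, 0.80 (95% interval 0.75 to 0.86), and at 5212 against 3875 CPM under estradiol, 0.43 (95% interval 0.27 to 0.59). BCL2, the survival factor and a known estrogen target, stood at 813 against 476 CPM, 0.77 (95% interval 0.62 to 0.92), and 868 against 475 CPM, 0.87 (95% interval 0.43 to 1.34). Both were higher in cluster 5 in each library. JAK2 followed at 0.83 and 0.58, the receptor tyrosine kinase RET at 0.63 and 0.47 and MACF1 at 0.48 and 0.45. For CCND1 the log2 ratio was 0.44 (95% interval 0.44 to 0.45) under vehicle and 0.01 (95% interval -0.02 to 0.03) under estradiol, and the difference between the libraries was not tested.

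DUSP6 stood at 1002 against 1826 CPM, -0.87 (95% interval -0.97 to -0.76), and 621 against 1478 CPM, -1.25 (95% interval -1.52 to -0.97). INPP4B was at -1.02 and -0.52, the mRNA decay factor ZFP36L2 at -0.69 and -0.73, TXNIP, which restrains glucose uptake, at -0.63 and -0.70, the receptor coactivator PNRC1 at -0.57 and -0.50, and the survival factor MCL1 at -0.46 and -0.45. Of the estrogen-repressed list, 6 of 11 measured genes were past the fold downwards under vehicle (median -0.61) and 1 of 4 under estradiol (-0.45). Of the estrogen-induced list, 5 of 8 were past it upwards under vehicle (median 0.71), and the 3 measured under estradiol had a median of 0.10. Of all measured panel genes, 6.09% and 0.977% were past the fold downwards and 3.73% and 1.95% upwards (medians -0.08 and 0.02). Cell-cycle lists hardly differed: the vehicle medians were 0.13 for 8 S-phase genes, 0.19 for 4 G2/M genes and -0.11 for 16 recombination genes. Of 78 cytosolic ribosomal protein genes, 70 lay below a ratio of 1 under vehicle and 59 of 67 under estradiol, by little (medians -0.13 and -0.21, beside -0.02 and -0.12 for all measured all-gene rows), and none was past the fold.

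Against the G1 cells of cluster 6 the contrast was wider. In the panel 39 of 731 genes were past the fold upwards (5.34%) and 67 downwards (9.17%) under vehicle, a split that became 50 and 56 with median-of-ratios scaling and 51 and 55 without the 10 most abundant genes. Under estradiol 35 (7.2%) and 36 (7.41%) of 486 were past it, so that 14.5% and 14.6% were past it in either direction. The all-gene counts were 47 (3.18%) and 75 (5.07%) of 1479, and 14 (4.65%) and 4 (1.33%) of 301, where a mean over cells of the UMI share gave 14 and 7. In either direction the all-gene shares were 8.25% and 5.98%.

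On the high side, ESR1 stood at 6329 against 2757 CPM under vehicle, 1.20 (95% interval 1.14 to 1.25), and 5212 against 2538 CPM under estradiol, 1.04 (95% interval 0.91 to 1.17). WNT4 stood at 227 against 76 CPM and 436 against 95.4 CPM, 1.58 (95% interval 1.26 to 1.90) and 2.19 (95% interval 1.54 to 2.92). MYB, a transcription factor of the estrogen-induced list, was at 1.78 and 1.59, BCL2 at 1.09 and 1.86, RET at 1.25 and 1.12, the endocytic receptor LRP2 at 1.19 and 2.0 and the early-response factor EGR3 at 0.86 and 1.44. All were higher in cluster 5 in both libraries. GRIA3 stood at 244 against 30.9 CPM under vehicle, 2.98 (95% interval 2.56 to 3.43); the 74 cluster 6 cells under estradiol held 0 GRIA3 UMIs, which at a floor of 3 UMIs over that group makes cluster 5 at least 18.7-fold higher. In the all-gene rows BEX1 was at 2.04 and 2.41, SYT1 at 0.97 and 1.25, the steroid receptor cochaperone FKBP4 at 0.96 and 0.90 and XBP1, a luminal factor of the secretory pathway, at 0.53 and 0.66. Of the estrogen-induced list 7 of 8 panel genes under vehicle and 4 of 8 under estradiol were past the fold upwards (medians 0.98 and 0.80). For all measured panel genes the shares were 5.34% and 7.2% (medians -0.08 and 0.00).

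On the low side, INPP4B stood at 1104 against 4336 CPM, -1.97 (95% interval -2.07 to -1.88), and 1112 against 7078 CPM, -2.67 (95% interval -2.79 to -2.55). The membrane-binding protein ANXA2 was at -1.81 and -2.06, the matrix protein THBS1 at -1.38 and -1.72, the actin crosslinker FLNA at -1.11 and -1.04, and in the all-gene rows TMSB4X, which binds free actin, at -1.58 and -1.37 and the calcium-binding S100A11 at -0.72 and -1.22. Of all measured panel genes, 9.17% and 7.41% were past the fold downwards and 5.34% and 7.2% upwards under vehicle and estradiol. Of the list of G1 cyclins, kinases and inhibitors, 4 of 14 measured genes were past the fold downwards and 1 upwards under vehicle, and 2 and 0 of 9 under estradiol. Its inhibitors of cyclin-dependent kinases differed among themselves: CDKN2A, which encodes p16, was at 261 against 724 CPM and 214 against 1021 CPM, -1.47 (95% interval -1.68 to -1.27) and -2.26 (95% interval -2.55 to -1.96); CDKN2B, its neighbour encoding p15, at -2.53 under vehicle; and CDKN1A at -0.81 and -1.11. CDKN1B, which encodes p27, was at -0.07 and -0.11, and CDKN1C, encoding p57, at 0.30 under vehicle. Of the immediate-early and stress list 4 of 7 and 3 of 6 panel genes were past the fold downwards (medians -0.68 and -0.39), DUSP6 at -1.32 and -1.64 and FOS at -0.95 and -1.32, while MYC of the same list was at 1.10 under vehicle. TOP2A was at -0.28 (95% interval -0.40 to -0.16) under vehicle and 0.26 (95% interval 0.04 to 0.49) under estradiol; the difference was not tested. All 13 and 11 measured mitochondrially encoded genes lay above a ratio of 1 (medians 0.24 and 0.32), the median mitochondrial percent of the G1 cells of cluster 6 being 7.26 and 6.75.

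**Figure D2:**
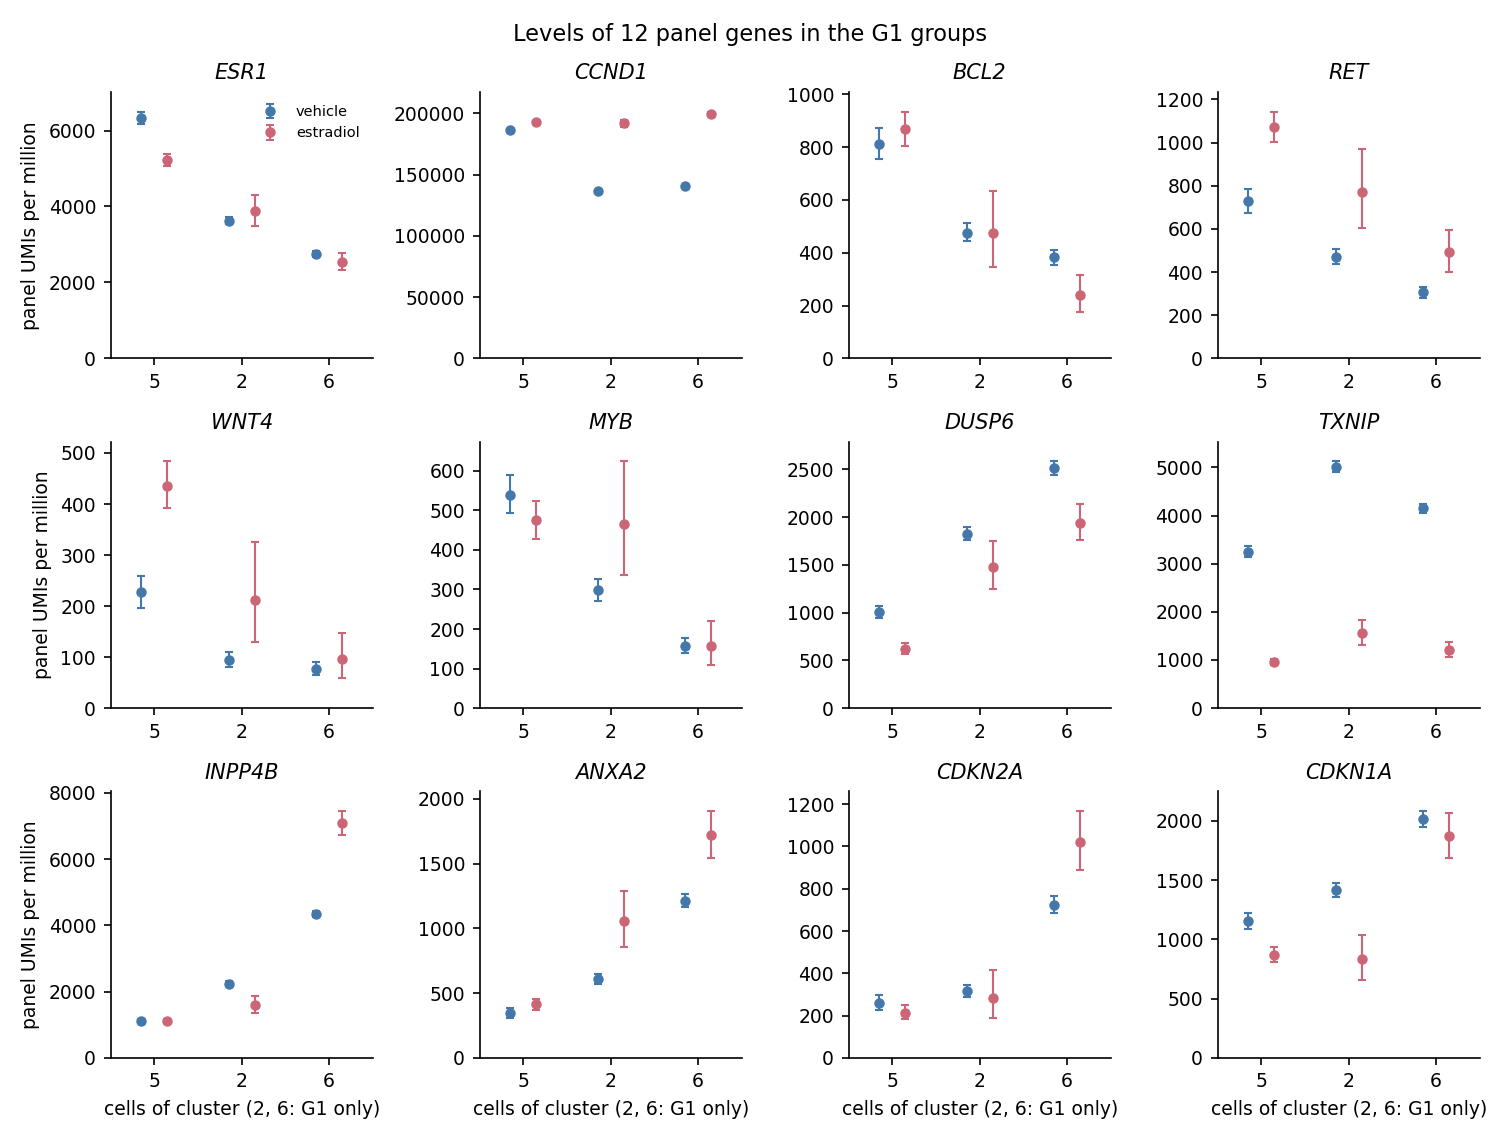
Levels of 12 panel genes in cluster 5 and in the G1 cells of clusters 2 and 6; the y axes are panel UMIs scaled to a total of 1000000 (CPM), points are sums over cells of 1 library (blue vehicle, red estradiol) and bars are exact 95% Poisson intervals. ESR1, BCL2, RET and WNT4 are highest in cluster 5 in both libraries, and DUSP6, INPP4B and ANXA2 are lowest in it; CDKN2A is also lowest there, with intervals that overlap those of cluster 2.

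The order of the 3 groups was the same for ESR1, BCL2 and RET in both libraries, cluster 5 before cluster 2 before cluster 6, with intervals of cluster 5 clear of both others for each. For CCND1 the order differed. Per 800 panel UMIs the median vehicle cell held 146.5 CCND1 UMIs in cluster 5, 100 in cluster 2 and 108 in cluster 6. The estradiol medians were 153, 146 and 158.5. CCND1 was thus highest in cluster 5 under vehicle, and the 3 groups lay close together under estradiol.

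Estradiol against vehicle inside the cluster, 365 cells against 364, compares the treatments among cells with the same label. Its limits are the library and the label. Of cells called G1, cluster 5 held 353 of 2493 under vehicle and 349 of 1163 under estradiol, and cluster 2 held 1078 and 70. Whether the label picks the same kind of cell in both libraries was not tested. In the panel 21 of 712 measured genes were past the fold upwards (2.95%) and 37 downwards (5.2%). In the all-gene rows 61 (4.1%) and 30 (2.02%) of 1488 were, a split of 46 and 45 with median-of-ratios scaling and 51 and 42 without the 10 most abundant genes. Among the genes with the lowest ratios were TXNIP, BTG2 and FOS, and among those with the highest were WNT4, PEG3 and chaperones of the endoplasmic reticulum.

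TXNIP had the lowest ratio of the panel: 957 CPM under estradiol and 3249 CPM under vehicle, -1.76 (95% interval -1.88 to -1.65). BTG2, an antiproliferative factor that p53 induces, stood at 182 and 519 CPM, -1.51 (95% interval -1.78 to -1.24). FOS, an AP-1 subunit, stood at 362 and 881 CPM, -1.28 (95% interval -1.48 to -1.09). All 3 were lower in the estradiol cells. ZBTB20, a zinc-finger repressor, was at -1.44, the Wnt inhibitor CXXC4 at -1.38, the interleukin receptor IL1R1 at -1.27, the stress gene GADD45G at -1.23, the matrix protein TNC at -0.91, the kinase MAPK10 (JNK3) at -0.84 and the glycosyltransferase GCNT1 at -0.84. In the all-gene rows the small nucleolar host gene SNHG25 was at -1.39, the phosphatase DUSP4 at -1.05 and the chloride cotransporter SLC12A2 at -1.05. Of the estrogen-repressed list 7 of 10 were past the fold downwards (median -0.69), beside 5.2% of all measured panel genes (median -0.01). Of growth-restraint genes 2 of 5 were (-0.51), of immediate-early and stress genes 3 of 6 (-0.57), and of growth factor receptors and their feedback genes 4 of 10 (-0.42), with ERBB3 at -0.70 and ERBB2 at -0.69.

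On the high side PEG3, an imprinted zinc-finger gene, led the all-gene rows at 383 CPM under estradiol and 107 CPM under vehicle, 1.84 (95% interval 1.38 to 2.33). TFAP2C, a luminal transcription factor, was at 1.47 (95% interval 0.92 to 2.05) and ELOVL2, which elongates fatty acids, at 1.26 (95% interval 0.65 to 1.91). The luminal keratin KRT8 was at 1726 and 925 CPM, 0.90 (95% interval 0.73 to 1.07). Chaperones of the endoplasmic reticulum were among the highest: HSPA5 (BiP) at 238 and 116 CPM, 1.04 (95% interval 0.56 to 1.55), and the disulfide isomerase PDIA3 at 1.00 (95% interval 0.53 to 1.48). Of 8 measured genes of the endoplasmic reticulum stress list 3 were past the fold upwards (median 0.47, beside 0.05 for all measured all-gene rows), and 7 of 8 hypoxia and glycolysis genes lay above 1, 2 past the fold (0.39), with the glycolytic enzymes ENO1 at 0.64 and TPI1 at 0.63.

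In the panel CDKN2D, the inhibitor p19, was highest at 116 and 55.9 CPM, 1.05 (95% interval 0.55 to 1.57). WNT4 followed at 436 and 227 CPM, 0.94 (95% interval 0.69 to 1.20), and PMAIP1 (the death promoter NOXA) at 0.92 (95% interval 0.47 to 1.38). The regulatory kinase subunit PIK3R1 was at 0.80, the crosslink repair protein FANCD2 at 0.76, the Wnt receptor FZD7 at 0.73, the EGR corepressor NAB2 at 0.71, the protease CTSB at 0.71, the matrix protein LTBP1 at 0.69 and the ligand BMP5 at 0.67. Of 16 recombination genes 4 were past the fold upwards (median 0.21), among them BRCA2 at 0.63 (95% interval 0.35 to 0.91), XRCC2 at 0.61 and RAD54L at 0.59. Of all measured panel genes 2.95% were (median -0.01). None of 7 base excision genes was (0.22), PARP1 being at 0.29 (95% interval 0.22 to 0.35) and PARP2 at 0.22 (95% interval -0.04 to 0.48). All 8 S-phase genes lay above a ratio of 1 and none was past the fold (median 0.29). MDC1 was at 826 and 718 CPM, 0.20 (95% interval 0.05 to 0.36), and CDKN1A at -0.41 (95% interval -0.55 to -0.27).

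ESR1 itself was lower with estradiol in the cluster, 5212 against 6329 CPM, -0.28 (95% interval -0.34 to -0.22), and CCND1 was level at 0.05 (95% interval 0.04 to 0.06). PGR encodes the progesterone receptor, whose gene estrogen turns on in many breast cells. It gave 14 and 18 UMIs in the cluster under estradiol and vehicle, too few to be measured, with a log2 ratio of -0.22 (95% interval -1.34 to 0.87); the 2954 G1 cells of the other clusters gave 71 and 38 UMIs.

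The same contrast was made in the G1 cells outside the cluster, 814 under estradiol and 2140 under vehicle, to set the sizes side by side. Those cells do not sit in the same clusters in both libraries: under vehicle they were mostly of clusters 2 (1078) and 6 (595), and under estradiol of clusters 1 (322) and 3 (261). Over the 712 panel genes measured in cluster 5, 58 were past the fold in the cluster (8.15%) and 115 in the other G1 cells (16.2%), with a median absolute log2 ratio of 0.18 and 0.25. Over 1488 all-gene rows the counts were 91 (6.12%) and 141 (9.48%). Of all genes measured in the other G1 cells themselves, 7.22% of the panel were past the fold upwards and 11.3% downwards (18.5% together), and 5.44% and 5.07% of the all-gene rows (10.5%). For all 8 estrogen-induced and all 10 estrogen-repressed panel genes measured in both, the ratio was nearer to 0 in cluster 5. Ratios of the panel as a whole were also smaller there, by the median absolute values above, so this is not particular to these lists. The share of all 712 genes with a smaller ratio in cluster 5 was not counted. Cluster 5 and the other G1 cells share no cells, but no test of the difference can be made with 1 library a treatment. The medians of all measured panel genes were -0.01 and -0.10. FOXO1, a growth-restraining factor not measured in the cluster, was farther from 0 there (-1.86 and -1.15). Among induced genes, WNT4 was at 0.94 in cluster 5 and 1.28 in the other G1 cells, EGR3 at 0.43 and 0.99, RET at 0.56 and 0.94, and CCND1 at 0.05 and 0.40. Opposite signs were seen for 3 of them: MYC at -0.47 (95% interval -0.73 to -0.21) and 0.55 (95% interval 0.40 to 0.69), MYB at -0.19 (95% interval -0.38 to 0.01) and 0.50 (95% interval 0.38 to 0.63), and the retinoic acid receptor RARA at -0.08 (95% interval -0.24 to 0.08) and 0.47 (95% interval 0.39 to 0.56). Among repressed genes TXNIP was at -1.76 and -2.14, PNRC1 at -0.51 and -1.22, and DDIT4, an inhibitor of mTORC1, at -0.29 and -1.30. PEG3 was at 1.84 and 2.57, while HSPA5, at 1.04 and 0.91, and KRT8, at 0.90 and 0.78, were of similar size in both.

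**Figure D3:**
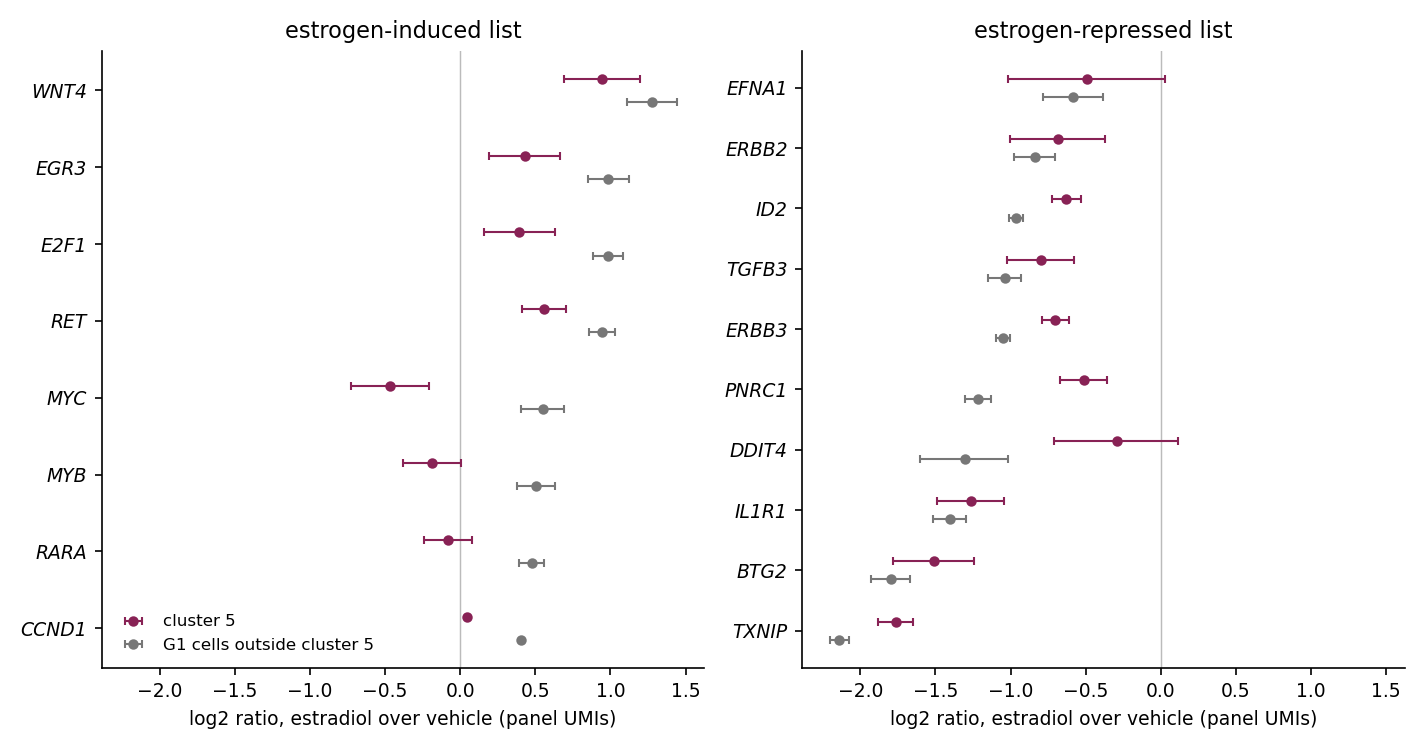
Log2 ratios of estradiol over vehicle (x axis, panel UMIs) for the 8 estrogen-induced and 10 estrogen-repressed genes measured in both groups, in cluster 5 (maroon) and in the G1 cells outside it (grey); bars are 95% intervals for counting error. Each maroon point lies nearer to 0 than its grey partner, on whichever side, and MYC lies on opposite sides at -0.47 and 0.55. Over 712 panel genes the median absolute log2 ratio was also smaller in cluster 5, 0.18 against 0.25.

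The repair rows count where each of 9 hairpin substrates ended, at 61 positions each; the substrates are named here as in the files, and the sequences of the hairpins are not printed. Positions 44 to 50 hold the main peaks of the Abasic and Uracil1 substrates and are called the window. In cluster 5 the window held 67.8% (67.2 to 68.4) of Abasic UMIs under vehicle and 66.6% (66 to 67.1) under estradiol, with 50.7% and 50.8% at position 46 alone (exact 95% intervals for shares in parentheses, here and below). For Uracil1 it held 30.9% (30.3 to 31.5) and 26.7% (26.2 to 27.2), most of it at position 45 (22% and 19.6%). The undamaged hairpin, Normal, gave 0.107% (0.0776 to 0.143) and 0.0778% (0.0563 to 0.105), which is the background measured the same way. Uracil2 gave 17.4% and 14.4%, Uracil3 10.5% and 8.84%, GU, named for a G and U pair, 7.13% and 6.1%, and riboG, named for a ribonucleotide, 4.69% and 4.52%. Each of these had its highest position outside the window in both libraries. Under vehicle it was position 20 for Uracil2 (18.3%), 14 for Uracil3 (14.1%), 6 for GU (15.1%) and 9 for riboG (12.5%). Where the lesion lies in each hairpin was not checked, so a window share is not a measured rate of cutting at the lesion. CI gave 0.162% (0.121 to 0.212) and 0.106% (0.0782 to 0.142), intervals that overlap those of Normal. TI gave 0.274% (0.237 to 0.316) and 0.19% (0.163 to 0.219), above Normal in both libraries.

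**Figure D4:**
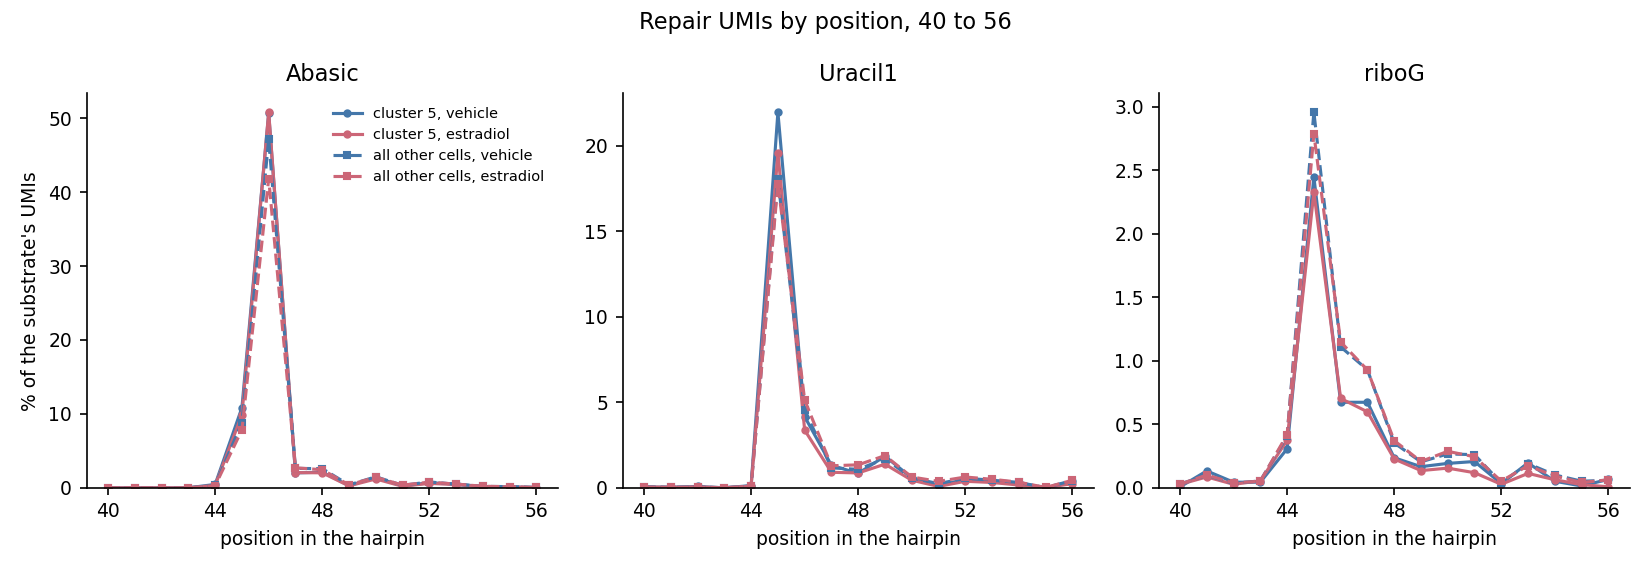
Share of a substrate's UMIs (y axis, percent) at positions 40 to 56 of the hairpin (x axis) for Abasic, Uracil1 and riboG, in cluster 5 (solid lines) and all other cells (dashed), vehicle blue and estradiol red. The Abasic peak at position 46 is 50.7% and 50.8% in cluster 5, above both dashed lines. For riboG the highest position of the window, 45, holds 2.45% and 2.33% in cluster 5, below both dashed lines. The highest riboG position of the whole hairpin, 9, lies outside the axis shown.

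The window share was larger in cluster 5 than in the remaining cells of the same library for the abasic hairpin, and smaller for the ribonucleotide hairpin. Against all other cells the log2 ratio of Abasic window shares was 0.09 (95% interval 0.08 to 0.11) under vehicle and 0.23 (95% interval 0.21 to 0.24) under estradiol, from 63.5% and 56.9% elsewhere. For riboG it was -0.41 (95% interval -0.49 to -0.33) and -0.44 (95% interval -0.51 to -0.37), from 6.23% and 6.14%; cluster 5 ranked 7 of the 8 clusters for riboG in both libraries and 4 and 2 for Abasic. For Uracil1 the sides differed, 0.18 (95% interval 0.15 to 0.21) under vehicle and -0.08 (95% interval -0.11 to -0.05) under estradiol, where counting positions 45 and 46 alone reversed the estradiol sign to 0.00. GU was at -0.02 (95% interval -0.06 to 0.02) and -0.52 (95% interval -0.56 to -0.48). Taking the median over single cells with at least 20 UMIs of the substrate, cluster 5 had 73.1% and 70.2% for Abasic against 69.3% and 62.4% in all other cells, and 3.61% and 3.64% for riboG against 5.00% and 5.13%.

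Over single positions with at least 50 expected UMIs, as a share of all repair UMIs, 2 (0.637%) and 29 (9.24%) of 314 were past 1.5-fold upwards and downwards against all other vehicle cells, and 7 (2.11%) and 66 (19.9%) of 331 against all other estradiol cells. The lowest were positions of Uracil2 outside the window: position 21 under vehicle, -2.19 (95% interval -2.60 to -1.81, 56 and 3715 UMIs), and position 25 under estradiol, -2.77 (95% interval -3.99 to -1.78, 8 and 540 UMIs). Position 23 of Uracil2 was low in both, -2.0 (95% interval -2.54 to -1.51, 34 and 1977 UMIs) and -2.21 (95% interval -2.65 to -1.81, 50 and 2295 UMIs). Position 21 was low in other vehicle G1 cells too. It held 0.0183% of repair UMIs in cluster 5, 0.0321% in the G1 cells outside it and 0.0838% in all other cells. Against the G1 cells of cluster 6 its ratio under vehicle was -0.75 (95% interval -1.21 to -0.31, 56 and 178 UMIs).

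For Abasic the G1 cells of clusters 2 and 6 lay on either side of cluster 5. Cluster 2 had the larger Abasic share, 73.9% and 71.2%, so that cluster 5 stood at -0.13 (95% interval -0.14 to -0.11) and -0.10 (95% interval -0.13 to -0.07) against it, and the smaller uracil shares: Uracil1 at 24.2% and 23.2%, 0.35 (95% interval 0.32 to 0.38) and 0.20 (95% interval 0.12 to 0.28), and GU at 0.65 (95% interval 0.60 to 0.70) and 0.29 (95% interval 0.18 to 0.40). The riboG share was smaller still in cluster 2 under vehicle, cluster 5 standing at 0.46 (95% interval 0.36 to 0.55) against it; under estradiol the ratio was 0.17 (95% interval -0.02 to 0.36), an interval that spans 0. Under vehicle 24 of 300 positions were past 1.5-fold upwards (8%) and 0 downwards, led by GU position 54 at 1.45 (95% interval 1.02 to 1.88, 95 and 93 UMIs); under estradiol 2 of 186 (1.08%) and 0. Against the G1 cells of cluster 6 Abasic was at 0.09 (95% interval 0.08 to 0.11) and 0.10 (95% interval 0.07 to 0.13), Uracil1 at 0.14 (95% interval 0.11 to 0.18) and -0.10 (95% interval -0.16 to -0.04), and riboG at -0.40 (95% interval -0.49 to -0.30) and -0.11 (95% interval -0.27 to 0.05), with 2 (0.654%) and 8 (2.61%) of 306 positions past 1.5-fold under vehicle and 0 of 206 in either direction under estradiol. The median repair depth was 829.5 and 1122 UMIs per cell in cluster 5, 748.5 and 970 in the G1 cells of cluster 2 and 962 and 1086 in those of cluster 6.

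**Figure D5:**
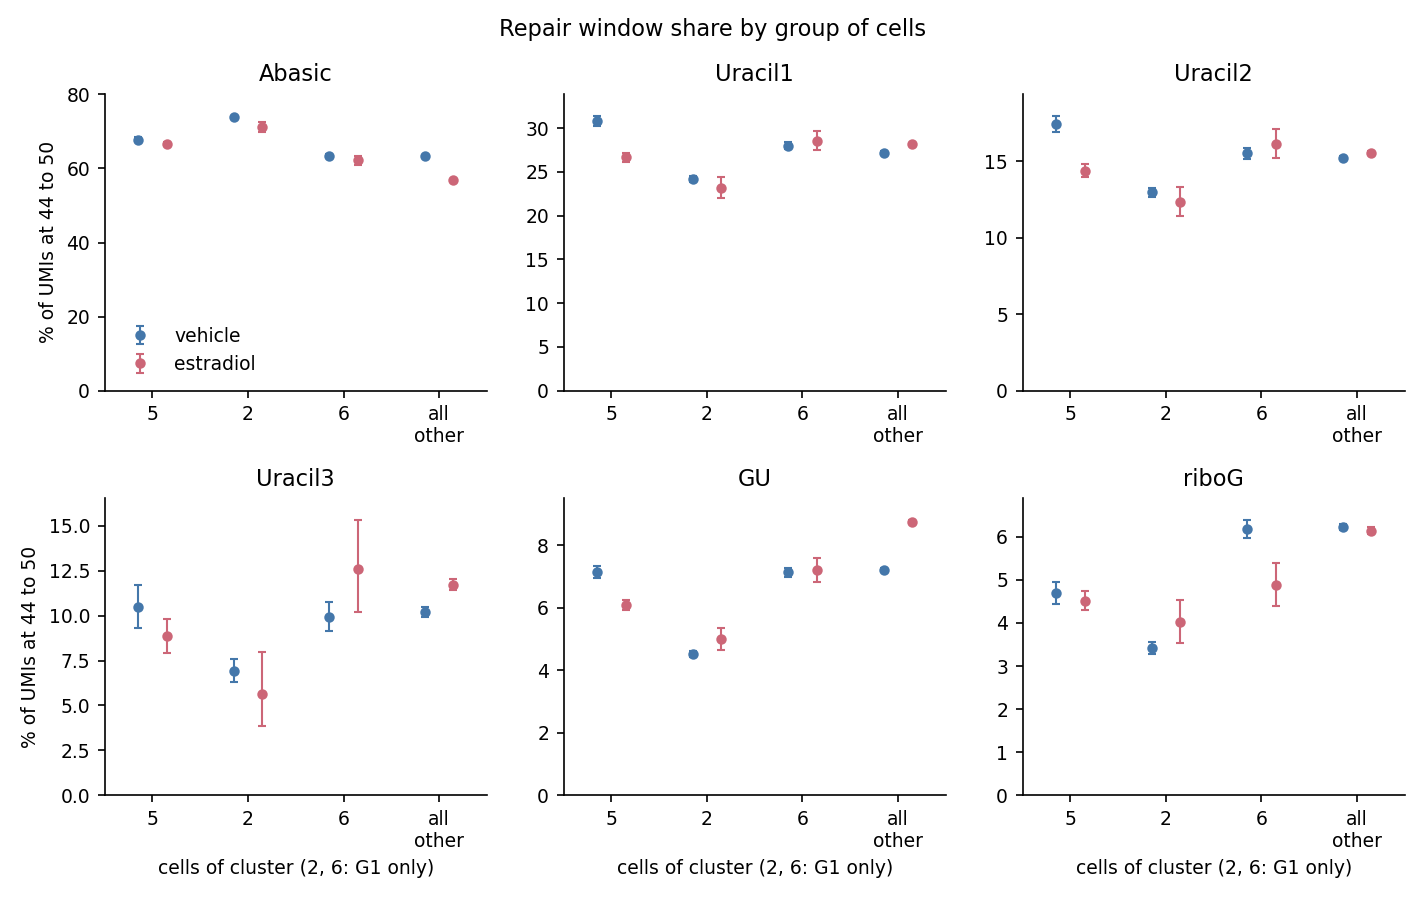
Share of each substrate's UMIs at positions 44 to 50 (y axes, percent) in cluster 5, the G1 cells of clusters 2 and 6, and all other cells, vehicle blue and estradiol red; bars are exact 95% binomial intervals. For Abasic, cluster 5 lies between clusters 2 and 6, and Uracil1 and Uracil2 are lower in cluster 5 under estradiol (26.7% and 14.4%) than under vehicle (30.9% and 17.4%).

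Inside the cluster, the Abasic share was nearly level between the treatments, with a log2 ratio of estradiol over vehicle of -0.03 (95% interval -0.04 to -0.01). Each uracil substrate was lower with estradiol: Uracil1 at -0.21 (95% interval -0.25 to -0.17), Uracil2 at -0.28 (95% interval -0.34 to -0.22), Uracil3 at -0.24 (95% interval -0.47 to -0.02) and GU at -0.23 (95% interval -0.28 to -0.17). The lower values were not limited to uracils: the substrates with little signal stood at -0.53 (95% interval -0.83 to -0.24) for TI, -0.61 (95% interval -1.17 to -0.04) for CI and -0.46 (95% interval -1.06 to 0.15) for the undamaged Normal, the last with an interval that spans 0. The share of riboG was at -0.05 (95% interval -0.16 to 0.05). In the G1 cells outside the cluster the same contrast gave -0.19 for Abasic, 0.03 for Uracil1, 0.04 for Uracil2, 0.33 for GU and 0.24 for riboG. Those differences were not tested, and these cells were mostly of clusters 2 and 6 under vehicle and of clusters 1 and 3 under estradiol. Within the G1 cells of cluster 2, Abasic was at 73.9% under vehicle and 71.2% under estradiol, and GU at 4.54% and 4.99%. In those of cluster 6, Abasic was at 63.5% and 62.2%, and GU at 7.14% and 7.20%. Of 301 positions in cluster 5, 1 was past 1.5-fold upwards (0.332%) and 5 downwards (1.66%). The one upwards was Uracil2 position 21, 1.02 (95% interval 0.57 to 1.49, 153 and 56 UMIs), which stood at 0.93 (95% interval 0.76 to 1.09, 616 and 598 UMIs) in the other G1 cells, and the lowest was Uracil1 position 54, -0.83 (95% interval -1.38 to -0.29, 52 and 69 UMIs). The messages of the enzymes that cut these lesions were mostly too sparse to set beside these shares: of the 24 base excision genes in the all-gene rows 3 were measured inside the cluster, with APEX1 at 0.35 (95% interval -0.11 to 0.82).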

How the data were processed

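Both treatments had 1 set of mRNA libraries and 1 Haircut library. The authors deposited a matrix of natural log values for all-gene, panel and repair rows, and an annotation with UMI counts per cell, mitochondrial percent, cluster and phase, per the file headers. The submitters' processing notes name UMI-tools 0.5.3, Bowtie2 2.3.2, SAMtools, cutadapt 1.8.3, Cell Ranger 3.0.2 and the build hg38, with no role or order. The sources at hand do not state how the all-gene rows or the clusters were made. The natural log values, scaled by the authors to 10000 per cell, were turned back into counts, of which 100% came out whole within 1e-06. Nothing in the labels says that the treatments were separate cultures.

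UMIs were summed over cells of a group and divided by the group total of the block (CPM, per 1000000). Ratios carry exact 95% intervals conditional on the summed count, levels exact Poisson and shares exact Clopper-Pearson intervals, and window ratios a log interval; all cover counting error only. A feature was measured at 50 or more expected UMIs in the smaller group. The design named no test, since each treatment has 1 library. Named genes are MDC1, ESR1, PGR, PARP1, PARP2, CCND1, MKI67 and CDKN1A, for each cluster contrast the 8 highest and 8 lowest per block with intervals clear of 1 and the same direction in both libraries, for estradiol inside the cluster the 10 highest and 10 lowest per block, and up to 4 members of each gene list; TTTGAA and CCAAT, and some genes set beside these, were chosen after values were seen. The members and lists were chosen with earlier results of these data known. Some of the genes that this rule names are not reported here. No doublet caller was run. Alternatives changed the scaling, the UMI minimum, the cells and their depth; the alternative without shared barcodes was chosen after seeing the data. The scripts were tested on simulated data. Python 3.11.15, numpy 2.4.6, scipy 1.17.1 and pandas 2.3.3 were used.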

Additional observations from a re-analysis of the deposited data

Results flagged for a closer look

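Among the named genes and the substrates, some log2 ratios had intervals clear of 0 on opposite sides in a pair of settings; of 19 such gene pairs, the 4 in which both ratios were at least 1.2-fold are given. With 1 library a treatment none of these differences was tested. TOP2A, against the G1 cells of cluster 6, had panel log2 ratios of -0.28 under vehicle and 0.26 under estradiol. ERBB3, a receptor of the EGF family, had all-gene log2 ratios of -0.43 and 0.50 against all other cells; the deeper panel rows gave 0.08 and 0.40, both above 0. For estradiol over vehicle, MYC stood at -0.47 in cluster 5 and 0.55 in the other G1 cells in the panel, and ESR1 at -0.28 and 0.33 in the all-gene rows.

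For the repair window, estradiol over vehicle gave log2 ratios in cluster 5 and in the other G1 cells of -0.21 and 0.03 for Uracil1, -0.28 and 0.04 for Uracil2, -0.24 and 0.18 for Uracil3, and -0.23 and 0.33 for GU. The other G1 cells were mostly of different clusters under vehicle and under estradiol. Cluster 5 against all other cells gave 0.18 under vehicle and -0.08 under estradiol for Uracil1, and 0.20 and -0.11 for Uracil2. Against the G1 cells of cluster 6 the values were 0.14 and -0.10 for Uracil1 and 0.17 and -0.17 for Uracil2. With cells thinned to 300 repair UMIs, Uracil1 against cluster 6 under estradiol was at -0.0152, and positions 45 and 46 alone put it at 0.0018 against all other estradiol cells. These contrasts share the cells of cluster 5 and are not independent of each other.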

How the results depend on the processing

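No paired analysis was possible because each treatment has 1 library of each kind and the labels give no replicate numbers. Over the named genes, 13690 values under the alternatives stayed inside the counting interval of the reported value, 479 moved outside it and 0 values past 1.5-fold changed sign. Of the 13690, 1671 and 1255 belong to the 25 and 100 UMI minimums, which leave a ratio unchanged and could not move it. Thinning to 800 UMIs moved 177 values and left 1061 inside. Median-of-ratios scaling moved 130 and left 1541, and leaving out the 10 most abundant genes moved 137 and left 1534. The UMI minimum set the number of genes that could be counted past 1.5-fold. With at least 25 expected UMIs, at least 100, and cells thinned to 800 UMIs, the panel counts under estradiol were 26, 2 and 5 against cluster 2 (9 as reported) and 108, 41 and 32 against cluster 6 (71). The all-gene counts in that order were 471, 79 and 110 against all other vehicle cells (191), 510, 90 and 111 against all other estradiol cells (216), 268, 25 and 47 against cluster 2 under vehicle (73), 14, 0 and 0 against cluster 2 under estradiol (4), and 84, 1 and 1 against cluster 6 under estradiol (18). With at least 25 and at least 100 UMIs they were 355 and 43 against cluster 6 under vehicle (122) and 328 and 24 for estradiol inside cluster 5 (91). Among vehicle cells with at least 800 all-gene UMIs the cluster held 9.0%, above the interval of the reported 7.37% (6.66 to 8.13). The estradiol share stayed inside its own interval under that cut. The gap in cluster 5 share between the libraries thus depends on the depth of the cells counted. Counting repair positions 45 and 46 alone gave Abasic log2 ratios of 0.13 and 0.29 against all other cells under vehicle and estradiol and -0.15 against cluster 2 under vehicle, and Uracil1 ratios of 0.21 and 0.0018 against all other cells, the latter with its sign reversed, and 0.28 against cluster 2 under vehicle; the cause was not tested. A mean over cells gave 0.18 for Abasic against all other estradiol cells, -0.10 for Abasic against cluster 2 under vehicle and 0.10 for Uracil1 against cluster 6 under vehicle. Thinning cells to 300 repair UMIs gave, for Abasic, 0.076 and 0.18 against all other cells, -0.11 and -0.0609 against cluster 2 and -0.0591 for estradiol inside cluster 5, and, for Uracil1, 0.40 against cluster 2 under vehicle and 0.19 and -0.0152 against cluster 6.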

Other observations

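Other fixed lists gave values not described above. Of 8 measured panel genes of the ID and TGF-beta families, 2 were past 1.5-fold downwards with estradiol inside cluster 5 (median -0.41), TGFB3 at a log2 ratio of -0.80 and ID2, an inhibitor of basic helix-loop-helix factors, at -0.63. In the other G1 cells 6 of 8 were (median -0.85), a difference that was not tested. Of all measured panel genes, 5.2% and 11.3% were past it downwards in the same contrasts (medians -0.01 and -0.10). SMAD3, which carries the TGF-beta signal, was low in cluster 5 against the G1 cells of cluster 6, at -1.13 and -0.84. Of 12 cell death genes, BCL2 (1.09) and PMAIP1 (0.69) were past the fold upwards against cluster 6 under vehicle and MCL1 (-0.74) downwards, beside 5.34% and 9.17% of all measured panel genes.

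Of 19 nuclear respiratory chain genes, 0 were past the fold upwards and 0 downwards with estradiol inside the cluster (median 0.07). Of 5 interferon and antigen presentation genes none was (median 0.09), while B2M, the light chain of MHC class I, stood at -0.62 in cluster 5 against all other vehicle cells and -0.54 against the G1 cells of cluster 2. Of 7 p53 targets, BTG2 (-1.51) was past the fold downwards and PMAIP1 (0.92) upwards with estradiol inside the cluster (median -0.39). Of all measured panel genes, 5.2% were past it downwards and 2.95% upwards (median -0.01).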
